A study of Homo sapiens with 5 samples.

Results

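The genes described here carry their 2 most used poly(A) sites in the last exon, at least 250 and under 1000 nt apart. For each gene the 2 sites with the most reads over 5 libraries were taken, provided that they averaged at least 20 reads per library together and at least 5 each. Of 5869 genes with such a pair of sites, 4680 had both in the last exon, as the authors' table classed them, and 1296 of these lay within the distance range. The upstream site of a pair is called proximal, the downstream site distal, and proximal use is the percentage of the reads of the pair that lay at the proximal site. The members were chosen by reads summed over all libraries and by the distance, so the distances and the depth of the pairs are given as description only. A site read mainly in 1 group could meet the minimum through that group alone. The cells were HEK293T, an established human embryonic kidney line, grown in DMEM with 5% FBS. The study asked how the CFIm59 and CFIm68 subunits of a cleavage factor act on poly(A) site choice. It compared 1 control library, labelled wild type, with 2 cell lines lacking CFIm59 and 2 lacking CFIm68, all knockouts made with CRISPR/Cas9. The labels call the lines of a genotype separate cell lines, so the spread between them is the spread between lines, and the control has no replicate: its own peculiarities and the effect of a knockout cannot be told apart in the comparisons against it.

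Cleavage and polyadenylation sets the 3′ end of an mRNA. Cleavage factor Im (CFIm) joins CFIm25 (NUDT21), a protein that recognises UGUA in the RNA ahead of a cleavage site, to CFIm59 (gene CPSF7) or CFIm68 (gene CPSF6). Where a last exon holds more than 1 poly(A) site, use of the proximal site gives an mRNA with a shorter 3′ end, which can lack binding sites for miRNAs and RNA-binding proteins. Loss of CFIm68 is known for a broad move to proximal sites. The libraries held 1673687 to 2924266 reads, and the pairs described here took 13.4 to 14.0% of them. CPSF6 stood at 119.9 CPM (read counts scaled by library total and TMM) in the control, 141.1 and 142.5 CPM without CFIm59, and 48.0 and 45.7 CPM without CFIm68 (log2 -1.35, SE 0.25, adjusted p = 0.000512 by edgeR's quasi-likelihood test against the control). CPSF7 levels were 59.8 CPM in the control and 68.4 and 55.5 CPM without CFIm59, which does not check that label, since counts at the 3′ end can lie outside the edited part. Without CFIm68, CPSF7 rose to 127.5 and 204.2 CPM (log2 1.47, SE 0.29, adjusted p = 0.000925). For NUDT21 the control had 119.9 CPM, the CFIm59 knockout lines 81.7 and 67.9 CPM (adjusted p = 0.058) and the CFIm68 knockout lines 140.4 and 134.5 CPM (adjusted p = 0.76). The markers of HEK293 cells were read in every library but differed between libraries, with no test. NEFL was at 50.4 CPM in the control, 81.1 and 88.6 CPM without CFIm59 and 24.0 and 27.5 CPM without CFIm68, and NEFM at 37.2, then 8.41 and 38.5, then 65.3 and 95.0 CPM. EYA1 was at 19.6 CPM in the control and 5.77 to 9.04 CPM in the knockout lines, LIN28B at 50.8 against 22.2 to 39.8 CPM, PAX2 at 4.51 CPM against 17.3 CPM in CFIm68 knockout line 2, SALL1 at 9.11 to 24.9 CPM and INA at 21.2 to 26.6 CPM over the libraries. Of 9 markers of other cell types, COL1A2 and PECAM1 had no reads, 6 stayed at or below 12.8 CPM, and ALB was at 26.3 CPM (70 reads) in the control and at 0 or 1 read in the knockout lines. The part of these differences in any result was not tested.

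The sequences below show what the ends of such pairs look like at genes whose results follow. No hg19 genome was used here, so sites were tied to annotated transcript ends of GENCODE v29 (GRCh38) by their spacing alone: the same gene, chromosome and strand, 2 ends in 1 last exon whose spacing came within 5 nt of the distance in the read counts, AATAAA or ATTAAA in the last 40 bases of both, and no second match. Of 1239 members found in the annotation by symbol, 94 were matched, against 2 when every distance was increased by 60 nt. The tolerance was chosen after the matches had been seen. It was raised from 2 nt, at which 81 pairs were matched, because the smaller value left out TMEM30A and other genes that moved; of the genes printed here, SLC38A2 alone also matched at 2 nt, and the others are less secure. Each line gives the last 30 bases of a transcript, 5′ to 3′, with the poly(A) signal in capitals.
TMEM30A proximal: tcctatgttAATAAAaatgaacaaaattaa
TMEM30A distal: ttcaaAATAAAtatcttgtctaaaaacaaa
HNRNPA1 proximal: cgtgacgctgAATAAAtgtcttttttttaa
HNRNPA1 distal: cAATAAAcgatttaattctcttgaatgaaa
SNX2 proximal: ccatctaAATAAAccactatatattttatg
SNX2 distal: tacagtAATAAAatgatattccttgtgaaa
SLC38A2 proximal: tgcAATAAAcaacatcaaattttttcatga
SLC38A2 distal: tgaactaaAATAAAtacatgcttaatcctg
The spacing of the annotated ends and the distance in the counts were 689 and 694 nt for TMEM30A, 370 and 365 nt for HNRNPA1, 353 and 350 nt for SNX2, and 292 and 293 nt for SLC38A2. In GRCh38 the printed proximal ends are chr6:75253613-75253642 (minus strand), chr12:54284852-54284881 (plus), chr5:122829726-122829755 (plus) and chr12:46358481-46358510 (minus). All these ends carry AATAAA; the 4 genes differ in what the knockouts did to them, as described below.

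Among the 94 matched pairs, AATAAA stood in the last 40 bases of 69 proximal and 76 distal ends, and ATTAAA alone in the remaining 25 and 18; that every end held 1 of the 2 follows from the match. The letters TGTA, the DNA form of the CFIm25 motif, were searched on the sense strand in the last 100 bases. They occurred at 46 proximal ends (48.9%) and 56 distal ends (59.6%), and at 52.9% of the 28351 distinct protein-coding transcript ends with either signal. With the tolerance of 2 nt the counts were 41 and 43 of 81 pairs, so the difference between proximal and distal ends depended on that choice. Of the 28 matched pairs that moved to the proximal site without CFIm68 (the test is given below), 18 proximal and 18 distal ends held TGTA; of the 63 that were not called, 25 proximal and 36 distal ends did. At 2 nt those counts were 14 and 15 of 20, and 26 and 27 of 60. A match of letters is a description and not a binding site.

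The members were spread over both strands, with 648 on each. The distal site held more reads than the proximal site in 768 pairs, the proximal site more in 524, and 4 were equal. A further last exon site averaging 5 or more reads lay between the sites of a pair in 251 genes, upstream of it in 301 and downstream in 277, while 681 genes had no such further site. The pair held a median of 85.5% of the reads of its gene (quartiles 72.3 and 94.5%, minimum 27.4%). Proximal use leaves out the other reads. Low values among genes described below include 45.8% for CDC73 and 56.2% for MESDC2. The table listed a site of 17 pairs under a second gene as well, so those reads cannot be given to 1 gene with certainty. The pair with the most reads stands under hsa-mir-6723, a locus that, as background, lies in a nuclear copy of mitochondrial DNA; its reads may come from mitochondrial RNA and it is counted but not described. At the lower bound, CNN3, PLAG1 and PSAP lay inside at 250 nt, with proximal use of 54.6%, 65.9% and 55.6% in the control, and GFI1, MIOS and PHF23 just outside at 249 nt, with 12.5%, 83.5% and 67.6%. At the upper bound, STOM, DCBLD1 and PATL1 lay inside at 996 to 998 nt, with 18.2%, 1.89% and 5.43%, and COG6, MAU2 and STAG2 outside at 1000 nt, with 11.3%, 44.0% and 2.43%. Without the read minimums 2645 pairs would have had reads at both sites, and 84 members had 25 to 29 reads in all at the weaker site, against 77 pairs left out with 20 to 24.

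Without CFIm68 the proximal sites of these last exons took a larger share of the reads. The median proximal use over the members was 35.6% in the control, 51.6% and 48.9% without CFIm68, and 30.1% and 29.2% without CFIm59. Both CFIm68 knockout medians were thus above the control and both CFIm59 knockout medians below it. Against the control, 371 members moved to the proximal site (28.6%, where 25.0% of all tested genes did) and 29 to the distal site (2.24%, where 3.1% of all did), by edgeR's quasi-likelihood test of the proximal to distal ratio with Benjamini-Hochberg adjustment over all 5869 genes and a threshold of 0.05. The median change over the members was 6.32 percentage points. Of all 4680 last exon pairs, members included, 28.7% moved to the proximal and 2.80% to the distal site. Their median change was 6.72 points. Among the 371, the median was 24.2 points, with the middle 50% between 17.2 and 35.0. Both knockout lines lay above the control in every one, a description only, since the calls rest on the same reads. The like share over all called genes was not computed. DESeq2 called 158 to the proximal site (12.2%, where 13.6% of all tested genes were called) and 7 to the distal site (0.54%, where 0.852% were), so whether the members' proximal share lay above or below that of all genes depended on the tool.

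**Figure D1:**
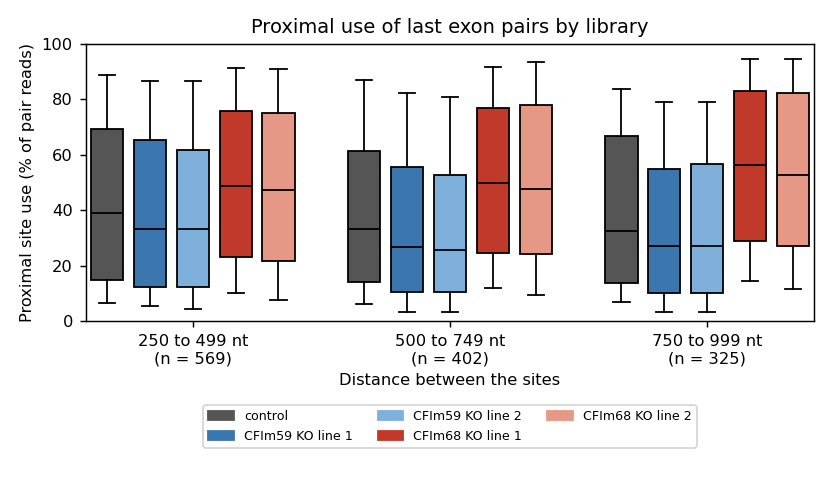
Proximal use in percent of pair reads (vertical axis) for members in 3 distance ranges, 1 box per library, with the median, the quartiles and whiskers from the 10th to the 90th percentile. In each range the medians of both CFIm68 knockout lines stand above the control, up to 56.5% against 32.7% at 750 to under 1000 nt, and those of both CFIm59 knockout lines below it.

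The move became more frequent with distance. At 250 to under 500 nt, 104 of 569 pairs moved to the proximal site without CFIm68 (18.3%). At 500 to under 750 nt this was 127 of 402 (31.6%), and at 750 to under 1000 nt it was 140 of 325 (43.1%). The median change rose along these ranges from 4.12 through 7.57 to 10.5 points and the median reads per pair and library were 97.8, 94.1 and 82.2. DESeq2 called 6.33%, 11.4% and 23.4% in the 3 ranges. The neighbouring classes of last exon pairs continued the order on the short side, with 4.56% of 1075 pairs under 250 nt, and on the long side with 45.6% of 1615 pairs at 1000 to under 4000 nt, whereas 27.2% of 694 pairs at 4000 nt or more moved. Across the 1295 members with reads in every library, which are not independent replicates, Spearman's rank correlation between the change in points and the distance was 0.20 for the CFIm68 knockout and -0.09 for the CFIm59 knockout, as a description.

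**Figure D2:**
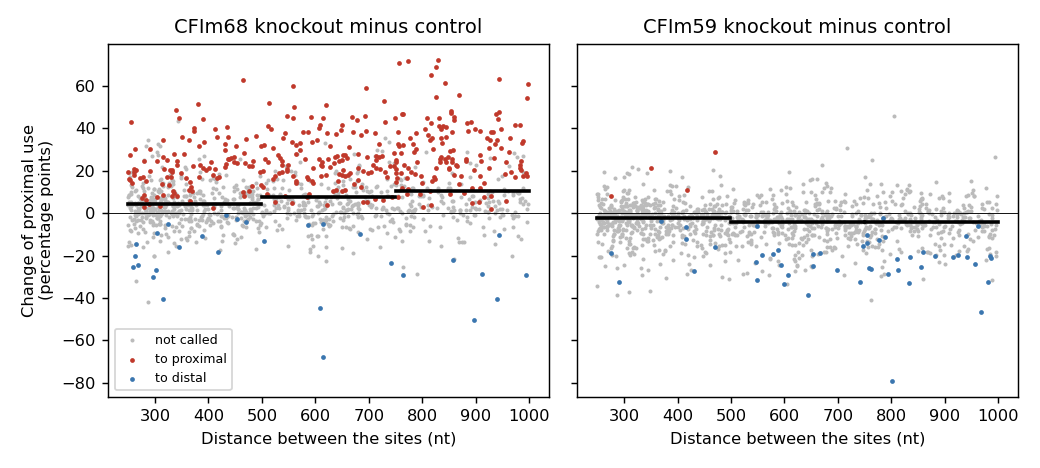
Change of proximal use against the control in percentage points (vertical axis) by distance between the sites in nt (horizontal axis), 1 point per member, for the CFIm68 knockout (left) and the CFIm59 knockout (right); red and blue points passed the test to the proximal and to the distal site, and black lines are the medians of the 3 distance ranges. The medians for the CFIm68 knockout rise from 4.12 to 10.5 points, and blue points are more frequent than red ones on the right, where 49 members moved to the distal and 4 to the proximal site.

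Depth and further sites were set beside the distance. Within pairs averaging 100 or more reads, the share moving to the proximal site was 23.2%, 34.6% and 52.5% in the 3 ranges. Within pairs of 20 to under 50 reads it was 8.96%, 25.7% and 34.9%. Genes with another site between the pair moved more often, 110 of 251 (43.8%), than genes with no further last exon site, 136 of 681 (19.97%); the former were read more deeply, at a median of 120.0 against 82.4 reads per pair. Pairs with a site between also lie farther apart, and within the ranges the shares with and without such a site were 29.7% and 16.6%, then 42.7% and 28.1%, then 58.0% and 38.1%. The part of depth in those differences was not tested.

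**Figure D3:**
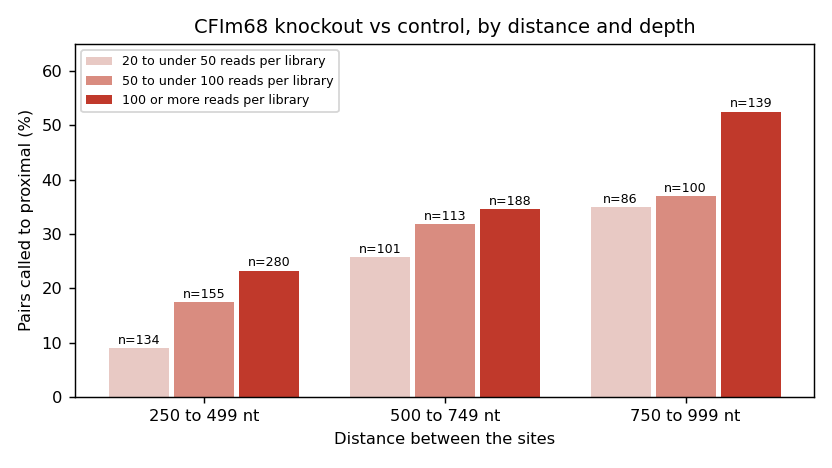
Percentage of pairs that moved to the proximal site without CFIm68 (vertical axis, from 0) by distance range and by mean reads per pair and library (shades), with the number of pairs above each bar. In every depth class the bars rise with distance, from 23.2% to 52.5% in the deepest.

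SPTLC1, which encodes a subunit of the enzyme that opens sphingolipid synthesis, changed most in percentage points among the members that met the rule for named genes. Its sites lie 817 nt apart on the minus strand of chromosome 9 (hg19 94794246 and 94793429). Proximal use was 9.76% in the control (8 of 82 reads, Wilson 95% interval 5.03 to 18.1%), 12.2% and 14.5% without CFIm59, and 73.1% and 76.8% without CFIm68. The CFIm68 knockout lines lay far above the other 3 libraries (log2 of the proximal to distal ratio 4.75, SE 0.54, adjusted p = 1.1e-09). TMEM30A encodes the partner subunit of phospholipid flippases. Its sites on chromosome 6 (hg19 75963336 and 75962642, minus strand) are those matched by spacing to the sequences shown above. Proximal use was 31.4% in the control, 41.0% and 33.4% without CFIm59, and 89.5% and 91.5% without CFIm68 (log2 4.36, SE 0.44, adjusted p = 6.8e-11).

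In other leading genes the control barely used the proximal site. MCOLN3, a cation channel of endosomes and lysosomes, had 1 proximal read of 45 in the control (2.22%, interval 0.393 to 11.6%), 1 of 51 and 3 of 71 without CFIm59, and 35 of 60 and 20 of 36 without CFIm68. DCBLD1 likewise had 1 of 53 in the control and 23 of 35 and 19 of 32 without CFIm68. The proximal sites of MCOLN3 and DCBLD1 met the read minimum only through the CFIm68 knockout lines. The change of these 2 genes was thus partly fixed by how they were chosen, and their tests and folds are description only. With 1 read in the control the fold is loosely set: the proximal reads of both CFIm68 knockout lines, per total reads, were 33.5 times the control for MCOLN3 (exact 95% counting interval 5.76 to 1346) and 25.6 times for DCBLD1 (4.34 to 1033). KPNA4, an importin alpha, went from 17.1% in the control to 59.5% and 65.7%, with 16.7% and 17.1% without CFIm59 (log2 3.01, SE 0.55, adjusted p = 2.2e-05). For the genes of this paragraph and the one before, the CFIm59 knockout did not pass the test, with adjusted p-values from 0.71 to 0.99.

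VCAN, the extracellular matrix proteoglycan versican, rose from 39.4% in the control to 81.8% and 91.0% without CFIm68 (log2 3.24, SE 0.49, adjusted p = 7.3e-07). Without CFIm59 it was at 41.9% and 43.6%, which did not pass (adjusted p = 0.86). Other leading genes, PROSER1, MESDC2 (a chaperone of LDL receptor proteins) and ZNF644 (a zinc finger protein), also moved between the knockouts and are described with that comparison.

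**Figure D4:**
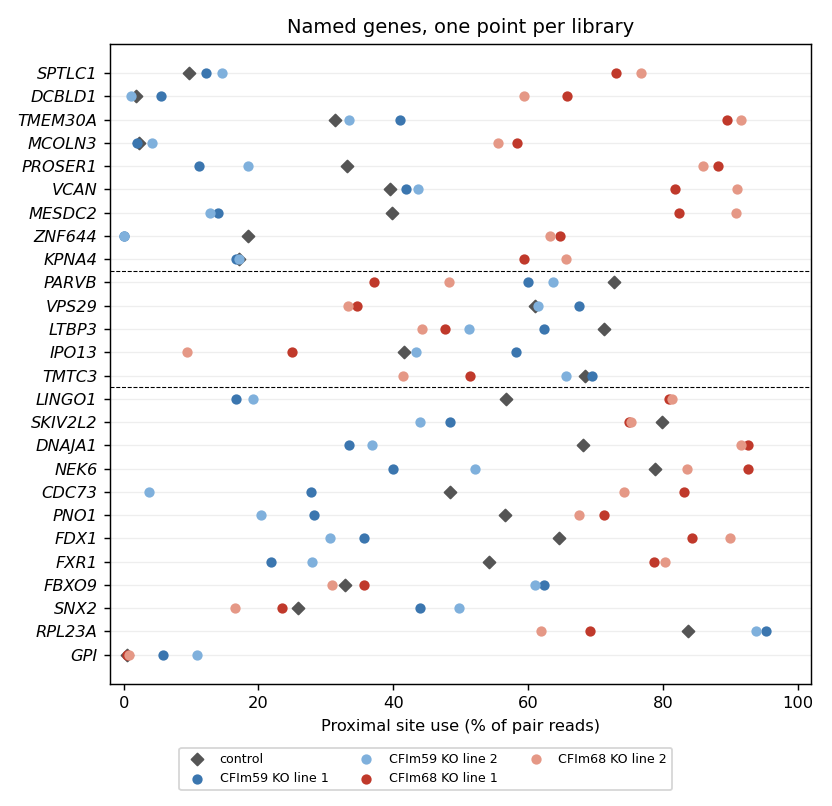
Proximal use in percent of pair reads (horizontal axis) for genes among those named by the rule, 1 point per library; the diamond is the control. The upper block holds genes that moved to the proximal site without CFIm68, the middle block those that moved to the distal site, and the lower block those called without CFIm59; red points lie right of the control in the upper block, as for SPTLC1 at 73.1% and 76.8% against 9.76%.

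The genes that moved to the distal site without CFIm68 were fewer and closer spaced, with a median distance of 470 nt against 651 nt for those that moved to the proximal site. VPS29, a retromer subunit, was the most deeply read of those named. Its proximal use was 61.0% in the control, 67.6% and 61.4% without CFIm59, and 34.7% and 33.3% without CFIm68 (log2 -1.60, SE 0.38, adjusted p = 0.00091). PARVB, a focal adhesion protein, went from 72.7% in the control to 37.2% and 48.3% (adjusted p = 0.011), and LTBP3, which binds latent TGF-beta, from 71.2% to 47.7% and 44.2% (adjusted p = 0.025). IPO13, an importin, went from 41.5% to 25.0% and 9.38% (adjusted p = 0.023). TMTC3, a protein of the endoplasmic reticulum, went from 68.4% to 51.4% and 41.4% (adjusted p = 0.037). With DESeq2, VPS29 passed (adjusted p = 0.040) and the other 4 did not (PARVB 0.149, LTBP3 0.195, IPO13 0.180 and TMTC3 0.272), and with no read minimum LTBP3, IPO13 and TMTC3 did not pass (0.108, 0.065 and 0.150). PARVB did not pass without CFIm68 knockout line 1 (adjusted p = 0.079), IPO13 and TMTC3 did not without line 2 (0.205 and 0.167), and TMTC3 was at log2 -0.13 (adjusted p = 0.865) when all last exon sites were split at the midpoint of the pair.

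A shift in the ratio can come from either site, so each site was also tested alone for its level. Of the members' sites without CFIm68, 177 of 1259 proximal sites were higher and 35 lower, and 218 of 1275 distal sites were lower and 27 higher, where 6.96% of all 25948 tested sites were higher and 7.63% lower. Among the 371 pairs that moved to the proximal site, both changes were called in 43, the rise of the proximal site alone in 110, the fall of the distal site alone in 126, and neither in 92. TMEM30A showed both, with its proximal site at log2 1.86 (SE 0.34, adjusted p = 2e-06) and its distal site at -2.51 (SE 0.34, adjusted p = 7.6e-11). SPTLC1 rose at its proximal site (log2 4.20, SE 0.49, adjusted p = 5.8e-15), while its distal site was at -0.54 (adjusted p = 0.331). HNRNPK, a splicing and translation regulator, fell at its distal site (log2 -2.53, SE 0.28, adjusted p = 6.8e-16), with its proximal site at 0.30 (adjusted p = 0.483).

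The summed level of the genes moved much less. Of the 371 genes, 348 had no called change of their total reads without CFIm68, 8 were higher and 15 lower, and the median log2 change was -0.08. Over all members 24 genes were higher and 34 lower, where 1.59% and 2.03% of all 14636 tested genes were. SPTLC1 was among the higher (log2 1.18, adjusted p = 0.0083), and CDK1, the mitotic kinase, among the lower (log2 -1.09, adjusted p = 0.0045). CDK1 used its proximal site at 15.2% in the control and 35.4% and 30.9% without CFIm68, with a fall of its distal site (log2 -1.51, SE 0.27, adjusted p = 1.2e-06). With DESeq2 neither total passed (adjusted p = 0.188 for SPTLC1 and 0.066 for CDK1), and of all members it called 0 genes higher and 8 lower, with 36 and 80 at an unadjusted p under 0.05. Counts of single sites also depended on the tool: DESeq2 called 16 proximal sites higher and 55 distal sites lower. DESeq2's shares over all tested sites and genes are not given here, so its counts show the dependence on the tool only. In bulk RNA, a change in the number of cells that hold a transcript and a change in its amount per cell cannot be told apart.

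**Figure D5:**
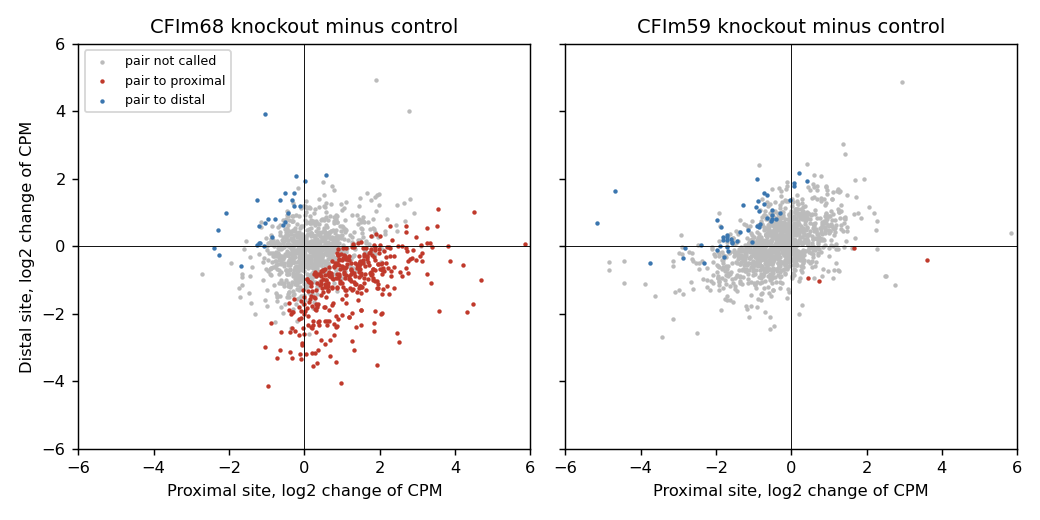
Log2 change of the proximal site (horizontal axis) against that of the distal site (vertical axis), on CPM, for the 1238 members with both sites tested, without CFIm68 (left) and without CFIm59 (right); colours give the call on the pair, and 4 members lie beyond the axes in each panel. Red points on the left lie toward a higher proximal and a lower distal site, where 153 and 169 of the 371 pairs had a called site.

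Gene groups were read by counts of their members, beside the shares of all genes, 25.0% proximal and 3.1% distal. The groups here and below are small, and none was tested against these shares. Among genes for RNA-binding proteins, 4 of 7 hnRNP genes and 2 of 6 SR protein genes moved to the proximal site without CFIm68 and none to the distal site, with median changes of 14.7 and 17.1 points. HNRNPK went from 76.3% proximal use in the control to 96.9% and 94.7% (log2 2.86, SE 0.39, adjusted p = 7.9e-08). HNRNPA1, whose ends matched by spacing are shown above, went from 70.4% to 86.9% and 83.3% (log2 1.28, SE 0.38, adjusted p = 0.0072). SRSF2, a splicing regulator, went from 22.7% to 44.7% and 42.1% (log2 1.38, SE 0.36, adjusted p = 0.0020). HNRNPU and SRSF3 did not pass, at log2 0.51 and 0.39 (adjusted p = 0.32 and 0.44), though HNRNPU did with all last exon sites split at the midpoint of the pair (log2 1.01, adjusted p = 0.017). With DESeq2, HNRNPA1 and SRSF2 did not pass (adjusted p = 0.072 and 0.055). Of the cleavage and polyadenylation factors 1 was a member, PCF11, which links cleavage to transcription termination. It went from 28.3% in the control to 74.6% and 58.8%, with 15.9% and 26.0% without CFIm59 (log2 2.33, SE 0.58, adjusted p = 0.0013).

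Ubiquitin-conjugating enzymes moved in 4 of 8 members, RAB and ARF GTPases of vesicle traffic in 7 of 11, chromatin remodellers and histone modifiers in 5 of 9, and heat shock chaperones in 5 of 10, each with none to the distal site. UBE2D3, of the first group, was at 48.1% in the control, 38.1% and 34.8% without CFIm59, and 93.3% and 92.7% without CFIm68 (log2 3.84, SE 0.38, adjusted p = 3.2e-11). UBE2N went from 72.3% to 96.3% and 97.3% (log2 3.48, SE 0.47, adjusted p = 6.8e-08). RAB7A, of late endosomes, went from 42.0% to 59.5% and 63.0% (log2 1.13, SE 0.37, adjusted p = 0.018), and SMARCA5, a chromatin remodelling ATPase, from 57.6% to 82.4% and 81.1% (log2 1.72, SE 0.40, adjusted p = 0.00061). RAB7A did not pass with DESeq2 or with no read minimum (adjusted p = 0.180 and 0.087). Cyclins and their kinases moved in 3 of 6 and zinc finger ZNF genes in 4 of 27, with 1 ZNF gene to the distal site; solute carriers moved in 3 of 12, translation factors in 2 of 6 and proteasome subunits in 1 of 6. SLC38A2, an amino acid transporter whose matched ends are shown above, did not pass (10.2% in the control, 9.25% and 14.6% without CFIm68, adjusted p = 0.77).

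None of 12 cytosolic ribosomal protein genes shifted toward the proximal site while 3 shifted toward the distal one. Of 6 oxidative phosphorylation genes none moved to the proximal and 2 to the distal site. Their median changes were -0.41 and -2.55 points. Many of these genes use 1 site almost alone, which limits a change in points: RPS4X was at 99.6% proximal use in the control and 98.9% and 98.4% without CFIm68 (log2 -1.68, SE 0.47, adjusted p = 0.0043), and UQCR10, a complex III subunit, at 98.6% and then 96.0% and 93.0% (log2 -2.02, SE 0.48, adjusted p = 0.00078). Core spliceosome genes moved to the proximal site in 2 of 7 and to the distal site in 1, SNRPF (96.1% in the control, 91.9% and 89.5% without CFIm68, adjusted p = 0.013). DEAD and DEAH box helicases gave 1 of each among 5, with DHX40 going from 14.3% to 51.3% and 42.7% and DDX56 from 97.1% to 83.5% and 89.5% (adjusted p = 1.8e-05 and 0.0058). SNRPF and DDX56 did not pass with DESeq2 (adjusted p = 0.123 and 0.065), nor SNRPF with no read minimum (0.060). The distal site of DDX56 met the read minimum only with the reads of the CFIm68 knockout lines.

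Without CFIm59 the proximal sites took a smaller share. Against the same control, 49 members moved to the distal site (3.78%, where 5.06% of all tested genes did) and 4 to the proximal site (0.309%, where 0.988% did), with a median change of -3.30 points over the members and -20.7 points among the 49. Of all last exon pairs, 5.47% moved to the distal and 0.748% to the proximal site. By distance, 7 of 569 members moved to the distal site at 250 to under 500 nt (1.23%) and 16 of 402 at 500 to under 750 nt (3.98%). At 750 to under 1000 nt 26 of 325 did (8.0%), and all 4 to the proximal site lay in the first range. In the neighbouring classes of last exon pairs 0.372% moved to the distal site under 250 nt, 8.67% at 1000 to under 4000 nt and 9.08% at 4000 nt or more. These counts rest on the tool and on single libraries. DESeq2 called 0 to the distal and 1 to the proximal site, where over all 5869 tested genes it called 12 (0.204%) and 8 (0.136%). At an unadjusted p under 0.05 DESeq2 had 458 and 93 of all genes, and edgeR 932 and 230. Of the members, DESeq2 had 77 and 9 at that level and edgeR 203 and 28. Without CFIm59 knockout line 1 edgeR called 22 toward distal and 1 toward proximal, and without line 2 it called 15 toward distal; without CFIm68 knockout line 1 or 2, which enter only through the shared spread, it called 83 and 82 to the distal and 10 and 10 to the proximal site. The median change stayed between -3.40 and -3.07 points in these 4 fits. Because both knockouts are set against 1 control library, their changes are given side by side and not as separate evidence.

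DNAJA1, an Hsp40 chaperone, was the most deeply read of the genes named to the distal site. Its proximal use was 68.1% in the control, 33.4% and 36.8% without CFIm59, and 92.7% and 91.6% without CFIm68. All 3 groups lay apart, with the CFIm59 knockout lines below the control (log2 -1.98, SE 0.36, adjusted p = 0.00039) and the CFIm68 knockout lines above it (2.45, SE 0.39, adjusted p = 1.8e-06). Its distal site rose without CFIm59 (log2 1.26, SE 0.30, adjusted p = 0.00083), a call lost without CFIm59 knockout line 1 (0.057) and with no filter on low counts (0.085). LINGO1, a receptor subunit that limits axon growth, went from 56.7% in the control to 16.7% and 19.2% without CFIm59 (log2 -2.53, SE 0.59, adjusted p = 0.0051). SKIV2L2, the RNA helicase MTR4 of the nuclear exosome, went from 79.9% to 48.4% and 44.0% (log2 -2.23, SE 0.46, adjusted p = 0.0016), and without CFIm68 stood at 75.0% and 75.3% (adjusted p = 0.59).

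FXR1, an RNA-binding protein of the fragile X family, fell from 54.2% to 21.8% and 27.9% (log2 -1.81, adjusted p = 0.0042), through its proximal site (log2 -1.37, SE 0.32, adjusted p = 0.00062; 0.095 with DESeq2 and 0.067 without CFIm59 knockout line 1). FDX1, mitochondrial ferredoxin, went from 64.7% to 35.7% and 30.6%, and PNO1, a ribosome assembly factor, from 56.6% to 28.2% and 20.4% (adjusted p = 0.014 and 0.018). NEK6, a mitotic kinase, went from 78.8% to 16 of 40 reads and 52.2%, and CDC73, of the PAF1 complex, from 48.4% to 27.8% and 3.70%, so the CFIm59 knockout lines of CDC73 differed widely (adjusted p = 0.030 and 0.034). Several of these depend on 1 line: NEK6 and FXR1 did not pass without CFIm59 knockout line 1 (adjusted p = 0.193 and 0.053), and CDC73, PNO1 and FDX1 did not without line 2 (0.534, 0.199 and 0.146). With no read minimum NEK6, CDC73, PNO1 and FDX1 did not pass (0.097, 0.094, 0.073 and 0.061). With DESeq2 none of the 8 named genes passed, at adjusted p-values from 0.062 for DNAJA1 to 0.390 for NEK6.

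The 4 genes that moved to the proximal site without CFIm59 were FBXO9, SNX2, RPL23A and GPI. SNX2, a sorting nexin whose ends matched by spacing are shown above, was at 25.9% in the control (73 of 282 reads). It was at 44.0% and 49.8% without CFIm59, and at 23.5% and 16.5% without CFIm68. The CFIm59 knockout lines lay above the other libraries (log2 1.36, SE 0.42, adjusted p = 0.039), with a fall of the distal site (log2 -0.93, SE 0.30, adjusted p = 0.021). That site call was lost with DESeq2 (0.312), with no filter (0.120) and without either CFIm59 knockout line (0.207 and 0.086). FBXO9, an F-box protein, was at 32.9% in the control and 62.4% and 61.0% without CFIm59 (adjusted p = 0.028). RPL23A, a ribosomal protein, was at 83.8% and then 95.3% and 93.8% (adjusted p = 0.0026). GPI, a glycolytic enzyme, used its proximal site in 3 of 548 control reads (0.547%) and in 5.90% and 10.8% of reads without CFIm59 (adjusted p = 0.00028), 13.3 times the control per total reads (exact 95% counting interval 4.32 to 66.2). That site met the read minimum only through the CFIm59 knockout lines (17 and 41 reads). The test and fold of GPI, and its passes in the fits below, are therefore description only. FBXO9, SNX2 and RPL23A did not pass without CFIm59 knockout line 1 (adjusted p = 0.087, 0.083 and 0.056), and FBXO9 and SNX2 did not without line 2 (0.091 and 0.285); GPI passed in both fits. With DESeq2, GPI passed (adjusted p = 0.036) and FBXO9, SNX2 and RPL23A did not (0.390, 0.451 and 0.116), and with no read minimum FBXO9 and SNX2 did not (0.133 and 0.168).

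At the level of single sites and genes, 144 of 1259 proximal sites were lower without CFIm59 and 31 higher, and 62 of 1275 distal sites were lower and 62 higher, where 6.17% of all tested sites were lower and 4.82% higher. Among the 49 pairs that moved to the distal site, the proximal site fell in 28, the distal site rose in 11 and neither was called in 10. The total reads of 58 member genes were higher and of 128 lower, where 6.98% and 6.87% of all tested genes were higher and lower. Without CFIm59 knockout line 1 or 2, the lower proximal sites numbered 71 and 66 and the lower genes 76 and 74.

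The knockouts were also compared with each other, which uses 2 lines on each side. Proximal use was higher without CFIm68 than without CFIm59 in 609 members (47.0%, where 40.5% of all tested genes were) and lower in 48 (3.70%, where 6.08% were), with a median difference of 10.98 points. Of all last exon pairs, 45.6% were higher and 5.73% lower. By distance, 206, 214 and 189 members were higher in the 3 ranges, or 36.2%, 53.2% and 58.2%. DESeq2 called 450 (34.7%, where 30.7% of all tested genes were) and 31 (2.39%, where 3.34% were). Of the 609, the lines of the knockouts did not overlap in 608, and of the 48, in 47. The calls rest on the same reads, so this is a description only. The like share over all called genes was not computed, so it marks no trait of the members.

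MESDC2 had the widest difference in points among the genes named, with 14.0% and 12.8% proximal use without CFIm59, 39.8% in the control, and 82.4% and 90.9% without CFIm68 (log2 5.32, SE 0.54, adjusted p = 6.7e-12). PROSER1 followed, with 11.1% and 18.5%, then 33.1%, then 88.2% and 85.9% (log2 5.21, SE 0.48, adjusted p = 3.7e-13). The control thus lay between the knockouts in both. EXOC2, an exocyst subunit, and TRIO, a guanine nucleotide exchange factor, showed the same order, at 12.1% and 11.4% against 80.6% and 73.6%, and at 18.8% and 16.7% against 79.7% and 83.3% (adjusted p = 2.4e-12 and 6.2e-12). ZNF644 had no proximal read among 24 and 29 pair reads without CFIm59, which allows shares of up to 12.5% and 10.3%, 5 of 27 in the control, and 64.8% and 63.2% without CFIm68. With a floor of 3 reads in each CFIm59 knockout library its proximal to distal ratio was at least 15.8-fold higher without CFIm68 than without CFIm59. The proximal site of ZNF644 met the read minimum only through the CFIm68 knockout lines, so its test and fold are description only. LINGO1 completed the 6, at 81.0% and 81.4% without CFIm68 (log2 4.24, SE 0.54, adjusted p = 4.4e-09).

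In the other direction, RPL23A stood at 95.3% and 93.8% without CFIm59 and at 69.1% and 61.9% without CFIm68 (log2 -3.18, SE 0.31, adjusted p = 2.9e-12), with the control at 83.8% between them. FANCI, a DNA repair protein, stood at 77.9% and 85.0% against 49.5% and 60.6% (log2 -1.88, SE 0.40, adjusted p = 8.4e-05). VPS29, IPO13, SNX2 and FBXO9, described above, made up the rest, with log2 values from -2.25 to -1.67. In FBXO9 the control, at 32.9%, lay between the CFIm68 knockout lines at 35.7% and 31.0%, and in VPS29 it lay close to CFIm59 knockout line 2, at 61.0% against 61.4%. All 12 genes named in this comparison passed without each line in turn and without the control library.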

How the data were processed

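Poly(A) site sequencing reads of 5 HEK293T libraries (10 µg RNA, cDNA of 120 to 200 nt, per the labels' protocols) were deposited by the authors as raw read counts per site. The submitters' processing notes name hg19, TopHat2 2.1.0 and deepTools 2.4, without roles; not given in the sources used here are site calling, handling of internal priming and the annotation release. The number in a site's identifier was taken as its hg19 position; whether it counts from 0 or 1 is not stated. Reads carry no molecular identifiers, so intervals and floors (3 reads) cover counting error only. The first listing of each site was used. Proximal and distal counts of 5869 genes were fitted with edgeR 4.0.16 in R 4.3.3 (quasi-likelihood test, 2-sided) with a term per library and site-by-knockout terms, library totals as sizes and Benjamini-Hochberg adjustment over all genes. Standard errors are the log2 value divided by the root of the F statistic. Site and gene levels were tested after filterByExpr and TMM. All 5 libraries shared 1 spread per gene, so the lone control was assumed to vary like the knockout lines. DESeq2 1.42.0, other read minimums, midpoint splits, left-out lines and a replicate block were alternatives. The edgeR fits of pairs and genes were run on data simulated with the same spread in every library. Such data cannot check whether the lone control varies like the knockout lines. Pairs that were not called can still differ. Members, gene lists and the rule for named genes were chosen with earlier results of these data known. The rule took members past the threshold with both lines on 1 side and 50 or more reads per pair, by the largest change in points (10 to proximal and 5 to distal without CFIm68, 8 to distal and 5 to proximal without CFIm59, of which 4 existed, and 6 each way between the knockouts), the 6 with the most reads, the 4 most read of each list and those nearest the distance bounds; not all are described, and a few are not reported here.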

Additional observations from a re-analysis of the deposited data

Results flagged for a closer look

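Of the 12 genes named between the knockouts, 11 had the control between the CFIm59 and the CFIm68 knockout lines, so that every line of 1 knockout lay above the control and every line of the other below it. This way of picking them was set after the values had been seen, and both knockouts are read against 1 control library. The difference between the knockouts itself passed edgeR's quasi-likelihood test in each, with log2 values of the proximal to distal ratio, without CFIm68 minus without CFIm59, as follows. Toward the proximal site without CFIm68 they were 5.21 for PROSER1, 5.32 for MESDC2, 4.24 for LINGO1, 4.68 for EXOC2 and 4.36 for TRIO. For ZNF644 the fitted value was 8.74, which depends on the fit because both CFIm59 knockout lines had no proximal read, and is no bound. Toward the distal site they were -1.81 for VPS29, -2.25 for IPO13, -1.83 for SNX2, -3.18 for RPL23A and -1.88 for FANCI. For VPS29 and IPO13 the control lay close to CFIm59 knockout line 2, at 61.0% and 61.4%, and at 41.5% and 43.3% proximal use.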

How the results depend on the processing

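Of the 63 tests of pairs given for single genes, 53 passed, and none of those 53 changed direction under the alternatives run on them; nor did the 10 single-site and 5 gene-level tests. Of the pairs that did not pass, MCOLN3 without CFIm59 turned to -0.69 with the midpoint split and ran from -0.27 to 0.83 on leaving out a line, DCBLD1 from -0.90 to 1.47, and SLC38A2 without CFIm68 from -0.16 to 0.58. Adding sites within 30 nt changed nothing, since 0 members had one. DESeq2 lowered the counts to 158 and 7 (to proximal and to distal, without CFIm68), 1 and 0 (without CFIm59; 9 and 77 at an unadjusted p under 0.05) and 31 to distal between the knockouts. Minimums of 100 and 20 reads left 406 members, of which 166 and 19 were called without CFIm68, and 242 and 28 between the knockouts. These lower counts come from fewer members, and shares over all pairs at those minimums are not given here. With no minimum, 11 went to distal without CFIm68 and 2 and 15 without CFIm59; the midpoint split gave 81 to distal without CFIm59. Leaving out each line gave 1 to 10 to proximal and 15 to 83 to distal without CFIm59.

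For single sites (proximal higher and lower, distal higher and lower), DESeq2 gave 16, 1, 2 and 55 without CFIm68 and 5, 13, 9 and 10 without CFIm59, and no filter 74, 12, 5 and 121, and 9, 76, 17 and 35. Leaving out a line gave 17 to 44, 66 to 164, 29 to 85 and 28 to 75 without CFIm59. With DESeq2, genes higher and lower were 0 and 8 without CFIm68 (36 and 80 at an unadjusted p under 0.05, where edgeR had 88 and 149) and 21 and 43 without CFIm59, and lower genes without CFIm59 74 to 155 on leaving out a line. These counts of sites and genes are not set beside shares of all sites or genes, and show the dependence on processing only. The cause of these shifts was not tested.

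Of those 53 calls, 20 were lost with DESeq2, 11 without a minimum and 1 with the midpoint split. Over 5861 genes the deviations of same-numbered knockout lines had r = 0.03, as a description. Whether those lines share a batch was not tested. The replicate block, in a fit of the knockout lines, gave 607 to proximal and 50 to distal. A fit without the control and without the block gave 607 and 48. That fit, robust dispersions (382 and 31 without CFIm68, 5 and 57 without CFIm59) and library sizes summed over pairs (371 and 29, 4 and 47) were added after the data had been seen.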
